A study of Danio rerio with 4 samples.

Results

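The bulbus arteriosus is the elastic chamber at the outflow end of the zebrafish heart. Cells carrying the label Bulbus arteriosus in the authors' cell annotation were compared between 72 hpf and 48 hpf (hours post fertilisation), and 1547 of the 34676 annotated cells carried it. Single cells of hand-separated embryonic hearts were sequenced with a droplet-based 3' method that counts RNA molecules by unique molecular identifiers (UMIs). There were 4 libraries, 2 at 72 hpf with 663 and 512 Bulbus arteriosus cells, and 2 at 48 hpf with 253 and 119. At each stage 1 library came from sqet31Et x Tg(myl7:mRFP) hearts and 1 from sqet33mi59BEt x Tg(myl7:mRFP) hearts. Both sqet lines are enhancer traps with EGFP in cells of the atrioventricular canal or the sinoatrial region, and the myl7 promoter drives mRFP in cardiomyocytes, so all 4 libraries carried both kinds of reporter. No treatment was given. Each library was a pool of many hearts, and the lines served as pseudo-replicates, so stage cannot be told apart from the pool and preparation of a library, and p-values measure only the spread between these libraries.

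In teleosts the ventricle ejects blood into the bulbus arteriosus, whose wall stretches and recoils and so evens out the pressure that reaches the gills. Its wall is built by smooth muscle cells that secrete elastin, which lysyl oxidases crosslink on a microfibril scaffold with the help of fibulins. Progenitors of the outflow tract come from second heart field and pharyngeal mesoderm, with a contribution from neural crest.

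UMIs were summed over the Bulbus arteriosus cells of each library, and levels are given in CPM, UMIs per 1000000 UMIs of that sum, for the sqet31Et library and then the sqet33mi59BEt library of each stage. A sum over more cells has more UMIs, and in CPM a change in the share of cells that express a gene and a change in RNA per expressing cell cannot be told apart. The sums held 1560611 and 566778 UMIs at 72 hpf, against 599527 and 452091 at 48 hpf. Symbols in capitals are human-style names under which the annotation lists a zebrafish gene, and the Ensembl identifier is added where several zebrafish copies share a symbol. Among 5430 genes with enough UMIs, 470 were called (8.66%), 254 of them higher (4.68%) and 216 lower (3.98%) at 72 hpf, at an adjusted p below 0.05 (edgeR quasi-likelihood test, Benjamini-Hochberg adjustment over all 5430). Without the 48 hpf sqet31Et library 124 genes were higher and 111 lower, and without the 48 hpf sqet33mi59BEt library 155 were higher and 151 lower. With every cell thinned to 500 UMIs 74 were higher and 37 lower, of 2573 that could be tested. A gene could have enough UMIs through either stage alone, so the called shares of the gene lists below are descriptions only.

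The label was first set beside marker genes that the authors name for these cells, which include a periostin. The authors distinguished the cluster by these genes in these same cells, so a high rank is no independent check of the label. The authors name postnb for these cells and postna for AV cushion. The gene names used here call both copies POSTN and do not tell them apart, so both are given. At 72 hpf elnb, fbln5 and the POSTN copy ENSDARG00000104267 each had their highest level of all 18 annotated clusters in Bulbus arteriosus, in both libraries. They encode an elastin, a fibulin and the matricellular protein periostin. The other copy, ENSDARG00000043806, ranked 10 and 13 of the 18 and was highest in AV cushion, in both libraries. The marker shares per cell below use the first copy, which was chosen after these levels were seen. At 48 hpf this pattern was seen only in part. POSTN ENSDARG00000104267 had 560.4 and 427 CPM there, the second highest of the 18 clusters behind Mesenchymal fibroblasts with 641 and 501 CPM. fbln5 had 43.4 and 24.3 CPM, the highest of the 18 clusters in the sqet31Et library and second to Epicardium (35.4 CPM) in the sqet33mi59BEt library. Epicardium had only 15 cells in that library, so its level there is uncertain. elnb had no UMI. With elnb absent and neither fbln5 nor this POSTN copy highest in both libraries, the 48 hpf cells are called Bulbus arteriosus by their annotation only. Outside the authors' markers, the lysyl oxidase gene LOX (23.4 and 6.64 CPM) and its relative loxl2a (385 and 392 CPM) were highest of the 18 clusters in both 48 hpf libraries. No other gene of the elastic fibre list below with a UMI in these cells at 48 hpf was.

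Several genes of the elastic fibre were far higher at 72 hpf. elnb had 799.7 and 977 CPM at 72 hpf, against 0 and 0 CPM at 48 hpf. Set against a floor of 3 UMIs over the 48 hpf group, that is an at least 297-fold higher level (adjusted p = 3.17e-07, edgeR). No elnb UMI was counted in any annotated cell of either 48 hpf library, among 52498949 UMIs, whereas the 72 hpf libraries held 2365 elnb UMIs, 76.2% of them in Bulbus arteriosus. LOX, a lysyl oxidase that crosslinks elastin and collagen, had 1874 and 1914 CPM at 72 hpf, against 23.4 and 6.64 CPM at 48 hpf (log2 fold change 6.84, SE 0.54, adjusted p = 6.96e-07). fbln5, needed to assemble elastin onto microfibrils, had 1804 and 1289.8 CPM at 72 hpf, against 43.4 and 24.3 CPM at 48 hpf (log2 fold change 5.44, SE 0.49, adjusted p = 3.51e-06). All 3 genes were far apart between stages in either line, and their libraries did not overlap, as was true of 28.2% of all genes tested in this direction. LOXL1, a lysyl oxidase-like enzyme tied to elastin, had 149.9 and 162 CPM at 72 hpf, against 0 and 8.85 CPM at 48 hpf (log2 fold change 5.18, SE 0.68, adjusted p = 0.000132, with no call by DESeq2).

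The scaffold genes did not all move with elastin. mfap2, which encodes a microfibril-associated glycoprotein, was already high and had 569.6 and 411 CPM at 72 hpf, against 444 and 400.4 CPM at 48 hpf (log2 fold change 0.16, SE 0.37, adjusted p = 0.873). mfap5, of the same family, had 108 and 75.9 CPM at 72 hpf, against 31.7 and 31 CPM at 48 hpf (log2 fold change 1.51, SE 0.44, adjusted p = 0.0418), and that call was lost without the 72 hpf sqet31Et library and without either 48 hpf library. loxl2a, another lysyl oxidase-like gene, ran the other way. It had 26.9 and 115 CPM at 72 hpf, against 385 and 392 CPM at 48 hpf (log2 fold change -2.71, SE 0.47, adjusted p = 0.00113). Its LOXL2 relative had 81.4 and 98.8 CPM at 72 hpf, against 48.4 and 50.9 CPM at 48 hpf (log2 fold change 0.76, SE 0.39, adjusted p = 0.301). Of 24 elastic fibre genes matched in the files, 21 had a UMI and 13 passed the filter on low counts. In that list 5 genes rose (38.5% of the 13, beside 4.68% of all genes tested) and 1 fell. elnb, LOX and LOXL1 would not have passed the filter by their 48 hpf levels. The median log2 fold change was 0.76, beside 0.01 over all genes tested. It was 0.25 with no filter, 0.48 without the 72 hpf sqet33mi59BEt library and 1.36 without the 48 hpf sqet31Et library. Each alternative took its median over the members it could test, so these values do not always cover the same genes.

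**Figure D1:**
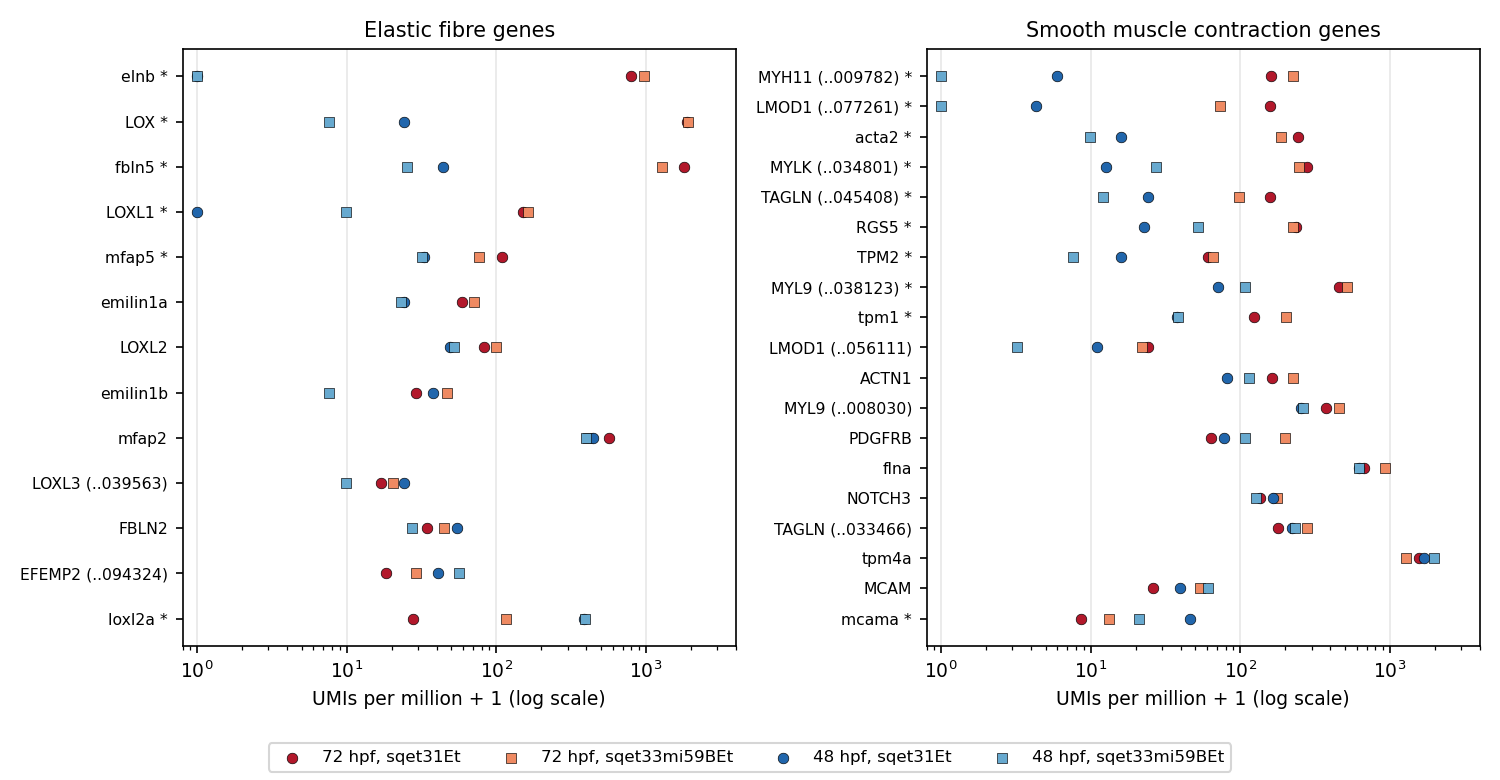
Level of each tested elastic fibre gene (left) and smooth muscle contraction gene (right) in Bulbus arteriosus, as CPM plus 1 on a log axis, with 1 point per library and genes ordered by log2 fold change. Asterisks mark an adjusted p below 0.05 (edgeR), and red and orange points (72 hpf) lie right of both blue points (48 hpf) for elnb, LOX, fbln5 and LOXL1 but left of them for loxl2a.

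Single cells showed the same stage difference at equal depth. When every Bulbus arteriosus cell was thinned to 500 UMIs, which left none out, elnb was detected in 22.8% and 27.9% of cells at 72 hpf, against 0% and 0% at 48 hpf. Before thinning the shares were 49.9% and 40.0% at 72 hpf, and 0 of 253 and 0 of 119 cells at 48 hpf, which allow shares of cells with an elnb UMI of up to 1.19% and 2.52% at the depth of these cells (counting error only). Cells of the Erythrocytes cluster, which should not make elastin, held elnb in 1.36% and 2.03% at 72 hpf after the same thinning. Of elnb, fbln5 and the POSTN copy, none was found in 33.0% and 38.7% of thinned cells at 72 hpf, against 85.0% and 89.1% at 48 hpf. All 3 were found in 7.39% and 5.47% at 72 hpf and in no cell at 48 hpf. Both 72 hpf libraries thus mixed cells with and without these transcripts at this depth. Before thinning, 17.2% and 28.7% of the 72 hpf cells still held none of the 3, with a median depth of 1944 and 914 UMIs per cell.

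**Figure D2:**
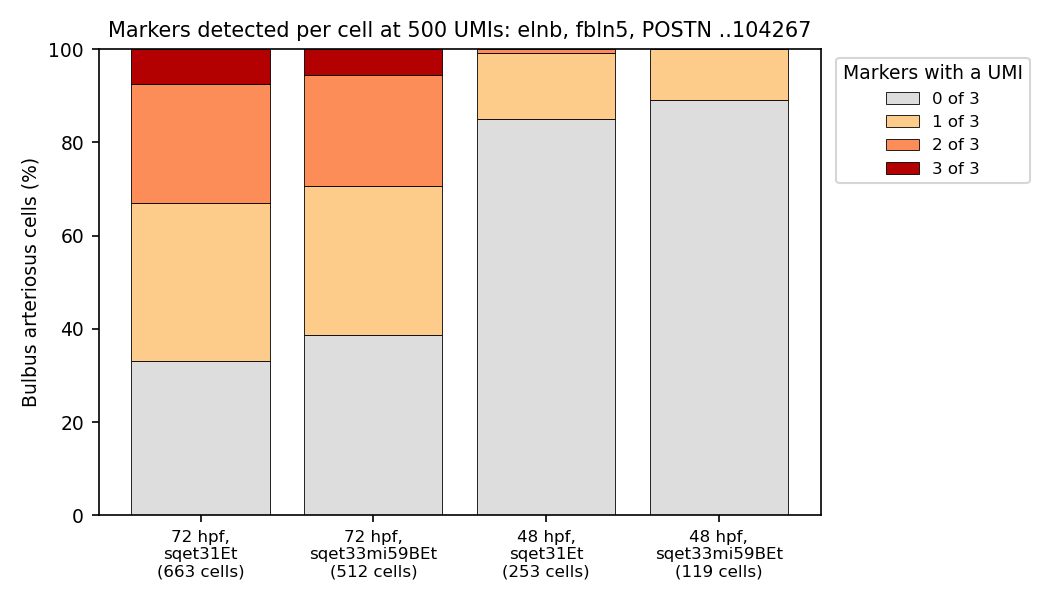
Share of Bulbus arteriosus cells with a UMI of 0, 1, 2 or 3 of the markers elnb, fbln5 and POSTN ENSDARG00000104267 after thinning each cell to 500 UMIs, 1 bar per library. Bars for none of the 3 are the tallest at 48 hpf (85.0% and 89.1%), and cells with 2 or 3 are seen almost wholly at 72 hpf.

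Among smooth muscle contraction genes, 9 of the 19 tested rose, 1 fell and 9 did not pass the test. acta2, which encodes smooth muscle actin, had 243 and 185 CPM at 72 hpf, against 15.0 and 8.85 CPM at 48 hpf (log2 fold change 4.07, SE 0.49, adjusted p = 4.49e-05). The MYH11 copy ENSDARG00000009782, a smooth muscle myosin heavy chain, had 159 and 226 CPM at 72 hpf, against 5.00 and 0 CPM at 48 hpf. Its 48 hpf level rested on 3 UMIs, and the ratio of the pooled levels was 62.0 (exact 95% counting interval 21.0 to 302, adjusted p = 1.9e-05). For each of these genes both 72 hpf libraries lay above both 48 hpf libraries. The MYLK copy ENSDARG00000034801, the myosin light chain kinase that triggers contraction, had 277 and 247 CPM at 72 hpf, against 11.7 and 26.5 CPM at 48 hpf (log2 fold change 3.73, SE 0.48, adjusted p = 9.91e-05). The LMOD1 copy ENSDARG00000077261, a leiomodin that nucleates actin filaments, had 157 and 72.3 CPM at 72 hpf, against 3.34 and 0 CPM at 48 hpf (2 UMIs), a pooled ratio of 70.7 (19.4 to 587, adjusted p = 0.000157). RGS5, a regulator of G protein signalling found in mural cells, had 236 and 224 CPM at 72 hpf, against 21.7 and 50.9 CPM at 48 hpf (log2 fold change 2.60, adjusted p = 0.00121). These calls held under each of the 15 alternative fits. Bulbus arteriosus was not the highest cluster for several of these genes. In Mesoderm progenitors, another annotated cluster, acta2 had 1731 and 2268 CPM at 72 hpf and LMOD1 ENSDARG00000077261 had 177 and 282 CPM. For MYH11 ENSDARG00000009782 Bulbus arteriosus ranked 3 among the clusters in both 72 hpf libraries. The highest were Mesoderm progenitors in the sqet31Et library (342 CPM) and Leukocytes in the sqet33mi59BEt library (504 CPM).

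Copies of 1 gene could differ. The MYL9 copy ENSDARG00000038123, a regulatory light chain, had 460.1 and 520.5 CPM at 72 hpf, against 70.1 and 106 CPM at 48 hpf (log2 fold change 2.37, adjusted p = 0.000683), while the copy ENSDARG00000008030 had 375 and 460.5 CPM at 72 hpf, against 254 and 263 CPM at 48 hpf (log2 fold change 0.59, adjusted p = 0.369). The TAGLN copy ENSDARG00000045408, a transgelin that binds actin, had 158 and 97.0 CPM at 72 hpf, against 23.4 and 11.1 CPM at 48 hpf (log2 fold change 2.82, adjusted p = 0.00126). For both copies that rose, Mesoderm progenitors were higher at 72 hpf, with 838 and 1220 CPM of that MYL9 copy and 1554 and 1385 CPM of that TAGLN copy. The other TAGLN copy ENSDARG00000033466 had 179 and 279 CPM at 72 hpf, against 222 and 230.0 CPM at 48 hpf, overlapping levels (log2 fold change -0.11, adjusted p = 0.919). The difference between copies was not itself tested. The tropomyosin genes tpm1 (log2 fold change 2.00, adjusted p = 0.0036) and TPM2 (2.39, adjusted p = 0.00619) rose as well, and each call was lost without 1 of the 48 hpf libraries, sqet31Et for tpm1 and sqet33mi59BEt for TPM2. The more general cytoskeletal genes tpm4a and flna were abundant at both stages, with log2 fold changes of -0.43 and 0.24 and adjusted p of 0.618 and 0.774. In all, 34 genes of this list were matched and 19 tested. Those that rose made up 47.4% of them (beside 4.68% of all genes tested). Of those given with levels, acta2 and the MYH11, LMOD1, MYLK and TAGLN copies that rose would not have passed the filter on low counts by their 48 hpf levels. This share is thus a description only. The 1 that fell was mcama, a cell adhesion gene (log2 fold change -1.86, adjusted p = 0.0447, lost when any 1 library other than the 48 hpf sqet33mi59BEt library was left out), and the median log2 fold change was 1.71.

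Fibrillar collagen genes were high at both stages. COL1A2, a chain of type I collagen, had 1469 and 1023 CPM at 72 hpf, against 575 and 538 CPM at 48 hpf, without passing the test (log2 fold change 1.11, SE 0.39, adjusted p = 0.0907). col1a1a, which encodes another chain, had 684 and 552 CPM at 72 hpf, against 444 and 422 CPM at 48 hpf (log2 fold change 0.44, adjusted p = 0.564). COL5A2, of type V collagen, was the only 1 of 16 tested collagen genes to pass (6.25%, beside 4.68% higher of all genes tested). It had 419 and 460.5 CPM at 72 hpf, against 143 and 106 CPM at 48 hpf (log2 fold change 1.73, SE 0.36, adjusted p = 0.00416), and missed the threshold without either 48 hpf library. The median over the collagens was 0.08, and it was -0.57 without the 72 hpf sqet31Et library and 0.38 without the 72 hpf sqet33mi59BEt library. Among 26 tested genes of collagen folding and processing the median log2 fold change was 0.53. In thinned cells it was 0.16, over only the members that could be tested there. Of the 26 genes, 5 rose (19.2%, beside 4.68% of all genes tested) and none fell. They were P4HB, the disulfide isomerase subunit of prolyl hydroxylase (log2 fold change 1.40, adjusted p = 0.0195), PLOD2, a lysyl hydroxylase (1.65, adjusted p = 0.021), fkbp11, a prolyl isomerase (2.10, adjusted p = 0.012), and the calumenin genes CALU (1.3, adjusted p = 0.0457) and calub (1.38, adjusted p = 0.0375). All 5 calls were lost without the 48 hpf sqet33mi59BEt library, and all but that of PLOD2 also without the 72 hpf or the 48 hpf sqet31Et library.

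The 2 periostin copies were placed differently. POSTN ENSDARG00000104267 had 1472 and 1424 CPM at 72 hpf, against 560.4 and 427 CPM at 48 hpf (log2 fold change 1.48, SE 0.37, adjusted p = 0.0167), a call lost without either 48 hpf library. POSTN ENSDARG00000043806 had 50 and 63.5 CPM at 72 hpf, against 1.67 and 0 CPM at 48 hpf, a pooled ratio of 56.4 (9.91 to 2245, adjusted p = 0.000258). That second copy was more abundant in the other annotated cells, at 153 and 262 CPM at 72 hpf, with its highest level in AV cushion cells (934 and 1409 CPM), and also in Erythrocytes (85.7 and 182 CPM), and the part of free RNA in its rise was not tested. Among other matrix genes the nidogens, which link laminin and collagen IV in basement membranes, rose. NID1 ENSDARG00000068710 had 262 and 389.9 CPM at 72 hpf, against 41.7 and 37.6 CPM at 48 hpf (log2 fold change 2.91, adjusted p = 0.000133). NID2 had 451 and 722 CPM at 72 hpf, against 133 and 137 CPM at 48 hpf (log2 fold change 1.98, adjusted p = 0.00169, lost without the 48 hpf sqet31Et library).

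Other matrix genes were more abundant at 48 hpf. hapln1a, whose product links hyaluronan to proteoglycans, had 25.6 and 21.2 CPM at 72 hpf, against 173 and 392 CPM at 48 hpf (log2 fold change -3.64, SE 0.48, adjusted p = 0.000132). The TNC copy ENSDARG00000021948, a tenascin of embryonic and remodelling matrix, had 12.2 and 8.82 CPM at 72 hpf, against 83.4 and 146 CPM at 48 hpf (log2 fold change -3.42, SE 0.50, adjusted p = 0.000275). Levels of both at 72 hpf were near those in Erythrocytes, which had at most 23.9 CPM of either. TGFBI, an adhesion protein induced by TGF-beta, had 20.5 and 88.2 CPM at 72 hpf, against 148 and 283 CPM at 48 hpf (log2 fold change -2.27, adjusted p = 0.00898, lost without the 48 hpf sqet33mi59BEt library). The proteoglycan genes HSPG2, DCN and FMOD ENSDARG00000044895 and the laminin gene lamc1 fell too, with log2 fold changes of -2.10, -1.46, -1.57 and -1.59 and adjusted p from 0.0397 to 0.0435, and each of these 4 calls was lost without the 48 hpf sqet31Et library. Those of HSPG2 and lamc1 were also lost without the 72 hpf sqet31Et or the 48 hpf sqet33mi59BEt library, that of DCN without the 72 hpf sqet31Et library and that of FMOD without the 72 hpf sqet33mi59BEt library. Of the 38 tested genes for matricellular proteins and other matrix, 5 rose (13.2%, beside 4.68% of all genes tested) and 7 fell (18.4%, beside 3.98%), with a median log2 fold change of -0.28.

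Of 33 tested transcription factor genes of outflow and pharyngeal mesenchyme, 10 fell, 3 rose and 20 did not pass the test. Both ISL2 copies, LIM homeodomain genes, were nearly undetected at 72 hpf. ENSDARG00000053499 had 1.28 and 3.53 CPM at 72 hpf, against 55.0 and 53.1 CPM at 48 hpf (log2 fold change -4.73, SE 0.63, adjusted p = 0.000144), and ENSDARG00000003971 had 2.56 and 1.76 CPM at 72 hpf, against 45 and 53.1 CPM at 48 hpf (log2 fold change -4.34, SE 0.62, adjusted p = 0.000248). The 48 hpf libraries of both lines lay clearly above the 72 hpf libraries for these genes. Both PRRX1 copies, mesenchymal paired-related homeobox genes, followed. ENSDARG00000033971 had 23.7 and 33.5 CPM at 72 hpf, against 135 and 188 CPM at 48 hpf (log2 fold change -2.63, adjusted p = 0.000523), and ENSDARG00000042027 had 11.5 and 3.53 CPM at 72 hpf, against 66.7 and 66.4 CPM at 48 hpf (log2 fold change -2.93, adjusted p = 0.00178). The forkhead gene foxf2a had 13.5 and 28.2 CPM at 72 hpf, against 132 and 108 CPM at 48 hpf (log2 fold change -2.72, adjusted p = 0.000606).

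FOXF1 (log2 fold change -3.31, adjusted p = 0.0056), the mesodermal homeobox gene MEOX1 (-2.60, adjusted p = 0.00357), the orphan receptor gene NR2F2 (-2.35, adjusted p = 0.0109) and SOX9 ENSDARG00000003293 (-1.84, adjusted p = 0.0219) also fell, and each missed the threshold when 1 or more libraries were left out. MEOX1 and SOX9 missed it without the 48 hpf sqet33mi59BEt library, FOXF1 without either sqet31Et library, NR2F2 without any library other than the 72 hpf sqet33mi59BEt library, and SOX9 also without the 72 hpf sqet31Et library. Only 3 of the listed factors were higher at 72 hpf. TBX20, a T-box gene of the developing heart, had 91.0 and 109 CPM at 72 hpf, against 26.7 and 8.85 CPM at 48 hpf (log2 fold change 2.35, SE 0.48, adjusted p = 0.00402, lost without the 48 hpf sqet33mi59BEt library). TBX18, a T-box gene of epicardium and mural cells, had 176 and 86.5 CPM at 72 hpf, against 20.0 and 39.8 CPM at 48 hpf (log2 fold change 2.14, adjusted p = 0.0124), and foxc1b had 298 and 356 CPM at 72 hpf, against 56.7 and 148 CPM at 48 hpf (log2 fold change 1.56, adjusted p = 0.0313). Both were lost without the 48 hpf sqet31Et library, and TBX18 without the 72 hpf sqet31Et library as well. HAND2, a heart and arch factor, had 385 and 406 CPM at 72 hpf, against 232 and 294 CPM at 48 hpf, and did not pass (adjusted p = 0.502). Of 43 factors matched, the 10 that fell were 30.3% of those tested (beside 3.98% of all genes tested) and the 3 that rose 9.09% (beside 4.68%), and the median log2 fold change was -0.63. That median was -1.25 without the 72 hpf sqet31Et library and 0.42 in thinned cells. Each covers only the members that could be tested in that fit, and thinned cells left 2573 genes of any kind to test. The value of 0.42 therefore cannot be read as a change of direction in the same genes. Of the factors given with levels, both ISL2 copies, PRRX1 ENSDARG00000042027 and foxf2a would not have passed the filter on low counts by their 72 hpf levels. TBX20 would not have passed it by its 48 hpf levels.

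**Figure D3:**
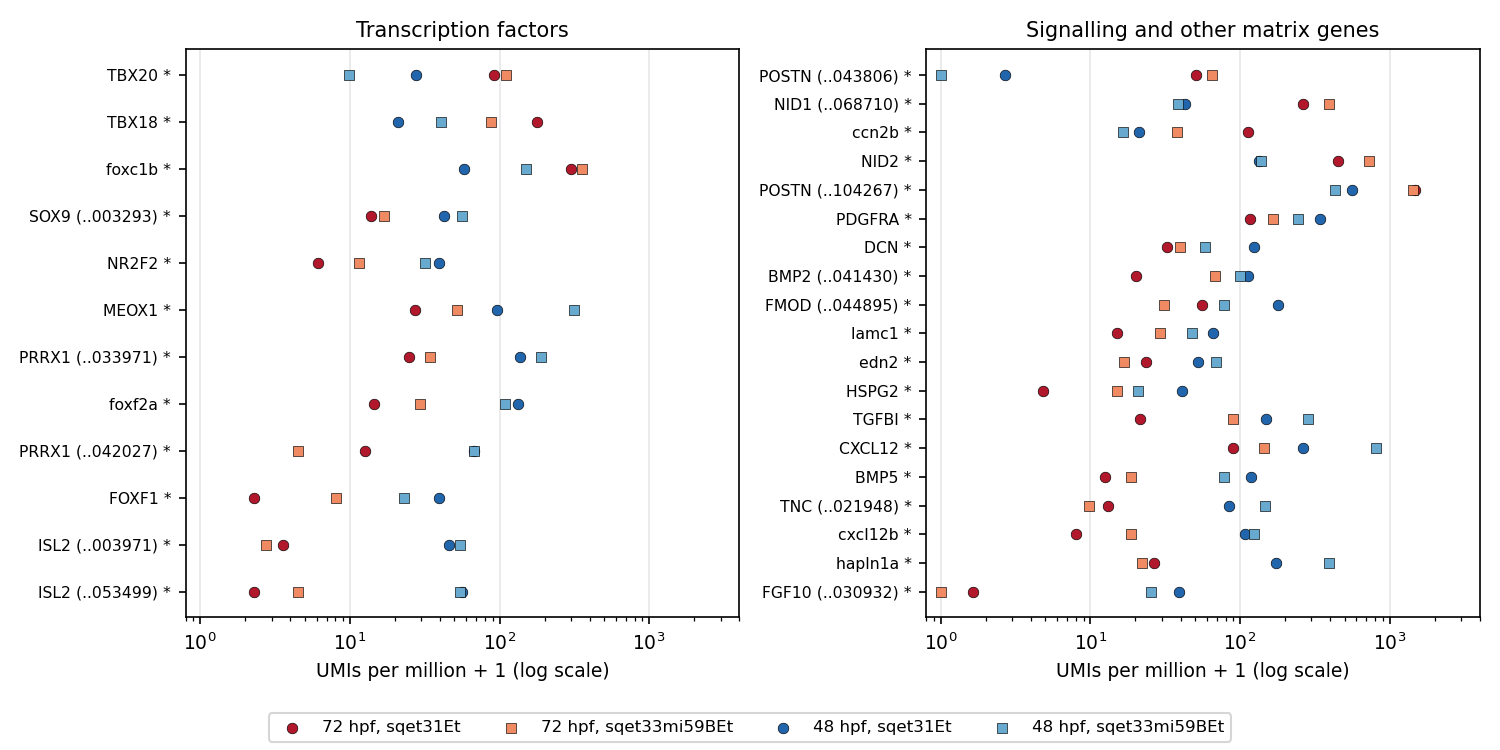
Level of the named listed genes with an adjusted p below 0.05 (edgeR) in Bulbus arteriosus, as CPM plus 1 on a log axis, 1 point per library: transcription factors on the left, signalling and other matrix genes on the right. Blue points (48 hpf) lie right of red and orange points (72 hpf) for the ISL2 and PRRX1 copies and foxf2a and left of them for TBX20, TBX18 and foxc1b.

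Ligand genes were among those that fell. The FGF10 copy ENSDARG00000030932, a fibroblast growth factor, had 1 UMI in all at 72 hpf (0.641 and 0 CPM), against 38.4 and 24.3 CPM at 48 hpf, a pooled ratio of 68.8 in favour of 48 hpf (11.5 to 2796, adjusted p = 0.000401). The chemokine gene cxcl12b had 7.05 and 17.6 CPM at 72 hpf, against 107 and 124 CPM at 48 hpf (log2 fold change -3.47, SE 0.48, adjusted p = 0.000188). CXCL12, listed for the related zebrafish gene, had 89.1 and 145 CPM at 72 hpf, against 262 and 809.6 CPM at 48 hpf (log2 fold change -2.37, adjusted p = 0.00369). Its 48 hpf libraries differed by more than its stages did at their nearest, and the call was lost without the sqet33mi59BEt library of 48 hpf. BMP5, a bone morphogenetic protein, had 11.5 and 17.6 CPM at 72 hpf, against 117 and 77.4 CPM at 48 hpf (log2 fold change -2.86, adjusted p = 0.000523). BMP2 ENSDARG00000041430 (-1.54, adjusted p = 0.0473), the endothelin gene edn2 (-1.64, adjusted p = 0.0365) and the PDGF receptor gene PDGFRA (-1.16, adjusted p = 0.0462) fell with calls that 7, 8 and 5 of 15 alternatives kept. The PDGFRA call was lost whichever library was left out, that of BMP2 without the 72 hpf sqet31Et library or either 48 hpf library, and that of edn2 without either sqet33mi59BEt library. In the list of Notch, PDGF, FGF and endothelin signalling 5 of 19 tested genes fell (26.3%, beside 3.98% of all genes tested) and none rose, with a median log2 fold change of -0.95. In that of TGF-beta and BMP signalling 2 of 24 fell (8.33%, beside the same 3.98%), none rose, and the median was -0.09. NOTCH3 and PDGFRB, receptors of mural cells, had overlapping levels, with log2 fold changes of -0.01 and 0.30 (adjusted p = 0.99 and 0.784).

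The 12 largest falls among genes with at least 100 CPM at 48 hpf included further genes outside the lists. LIN28A ENSDARG00000016999, an RNA-binding protein that blocks let-7 maturation, had 1.92 and 3.53 CPM at 72 hpf, against 142 and 95.1 CPM at 48 hpf (log2 fold change -5.57, SE 0.56, adjusted p = 9.89e-06). CYP1A1, a cytochrome P450 of xenobiotic metabolism, had 8.97 and 10.6 CPM at 72 hpf, against 135 and 177 CPM at 48 hpf (log2 fold change -4.07, SE 0.46, adjusted p = 3.09e-05). SFRP5, which encodes a secreted Wnt inhibitor, had 12.2 and 21.2 CPM at 72 hpf, against 260.2 and 75.2 CPM at 48 hpf (log2 fold change -3.46, adjusted p = 0.000366). Genes named by this rule were taken only where the libraries of the stages did not overlap, which held for 19.6% of all genes tested in this direction, so nothing is read from it. The cytokine gene il11b (-3.46), the carboxypeptidase gene CPN1 (-3.12), the adhesion receptor gene ADGRL2 (-3.06) and the secreted angiopoietin-like gene ANGPTL6 (-2.99) fell with adjusted p from 0.000262 to 0.00207. The cardiac myosin gene MYH6 ENSDARG00000079564 had 25.6 and 31.8 CPM at 72 hpf, against 679 and 90.7 CPM at 48 hpf (log2 fold change -3.79, adjusted p = 0.000749), below its level in Erythrocytes at 48 hpf (7004 and 1038 CPM), and the part of free RNA in it was not tested.

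The 12 largest rises held the elastic fibre and smooth muscle genes above and 3 further genes well above their level in Erythrocytes. si:cabz01070274.1, whose function is not annotated in the files, had 509 and 582 CPM at 72 hpf, against 0 and 0 CPM at 48 hpf, an at least 185-fold higher level (floor of 3 UMIs over the 48 hpf group, adjusted p = 4.15e-07). At 500 UMIs it was found in 19.5% and 19.9% of cells at 72 hpf, close to the shares for elnb. epd, which encodes ependymin, a secreted glycoprotein, had 109 and 1156 CPM at 72 hpf, against 0 and 2.21 CPM at 48 hpf, and GGCT, a gamma-glutamylcyclotransferase, had 39.7 and 231 CPM at 72 hpf, against 1.67 and 0 CPM at 48 hpf. Both came from few cells. epd was detected in 2.26% and 2.34% and GGCT in 2.11% and 1.37% of the 72 hpf cells before thinning, so their levels describe a small share of the cluster.

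**Figure D4:**
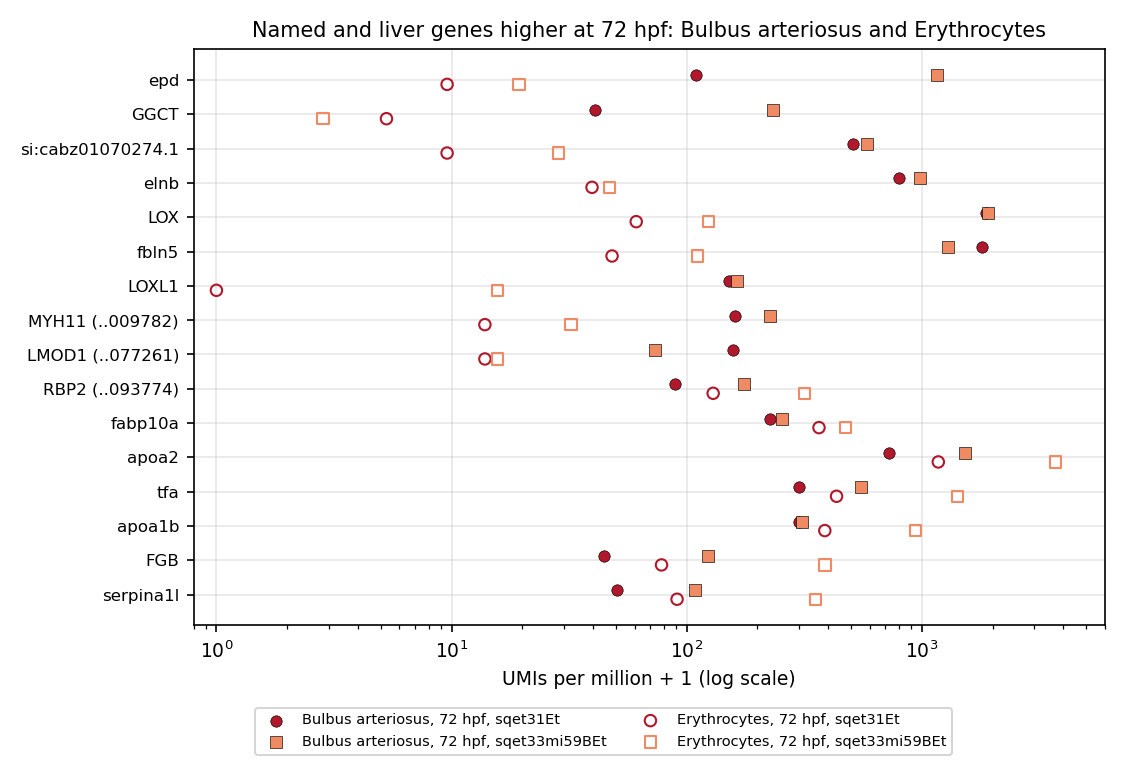
Level at 72 hpf, as CPM plus 1 on a log axis, of the 12 largest rises and of the tested liver genes, in Bulbus arteriosus (filled) and in Erythrocytes (open) of the same 2 libraries. Filled points lie right of the open ones for elnb, LOX, fbln5, LOXL1, MYH11, LMOD1, si:cabz01070274.1, epd and GGCT, and left of them for apoa1b, RBP2 and the liver genes.

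Genes of other tissues also differed between the stages. All 5 tested liver marker genes rose, beside 4.68% of all genes tested. apoa2, an apolipoprotein of liver, had 722 and 1524 CPM at 72 hpf, against 25 and 42 CPM at 48 hpf (log2 fold change 4.92, adjusted p = 7.91e-06), and fabp10a, the liver fatty acid binding protein, had 226 and 252 CPM at 72 hpf, against 0 and 4.42 CPM at 48 hpf (adjusted p = 9.89e-06). In Erythrocytes of the same 72 hpf libraries the levels were higher still, 1175 and 3697 CPM for apoa2 and 364 and 473 CPM for fabp10a. Likewise apoa1b and RBP2 ENSDARG00000093774, among the 12 largest rises, had 386 and 938 CPM, and 129 and 316 CPM, in Erythrocytes at 72 hpf, against 299 and 309 CPM, and 88.4 and 175 CPM, in Bulbus arteriosus. Levels of these genes in Bulbus arteriosus thus lay below those in a cluster that should lack them, and the part of free RNA in their rises was not tested. The summed liver list had 1348 and 2564 CPM at 72 hpf, against 63.4 and 55.3 CPM at 48 hpf, and none of its 6 genes was at 0 in all libraries.

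Haemoglobin RNA moved with stage and with library. hbbe3, a haemoglobin gene, had 0 and 1.76 CPM at 72 hpf, against 128 and 102 CPM at 48 hpf, and in Erythrocytes it had 12.9 and 89.9 CPM at 72 hpf, against 1563 and 1666 CPM at 48 hpf. hbae3 had 65.4 and 2444 CPM at 72 hpf, against 337 and 352 CPM at 48 hpf, so the 72 hpf sqet33mi59BEt library stood apart. Marker genes of other tissues were also summed over several lists. In the 72 hpf sqet33mi59BEt library 48.0% of Bulbus arteriosus cells had at least 1% of their UMIs in this sum. The share was 10.6% in the sqet31Et library of 72 hpf, and 26.5% and 25.2% at 48 hpf. No single list of another tissue gave the 48.0%. Of those 512 cells, the erythrocyte list alone reached 1% in 21, the liver list in 18 and the epidermis list in 8. Without the cells that reached 1% in the sum, 216 genes were higher and 155 lower, of 4317 tested. The part of free RNA in the remaining calls was not tested, and LOX and fbln5, at 1289.8 CPM or more in Bulbus arteriosus at 72 hpf, had at most 123 CPM in Erythrocytes.

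Some markers of other cell types differed as well, in lists to be read beside 4.68% higher and 3.98% lower of all genes tested. The 9 cardiomyocyte genes included 7 tested, of which myh6 and TNNI1 ENSDARG00000052708 fell (log2 fold changes -1.77 and -1.40, adjusted p = 0.0383 and 0.029) and none rose, and MYL7, an atrial and ventricular light chain in fish, had 159 and 199 CPM at 72 hpf, against 412 and 276 CPM at 48 hpf. In the rest of the annotated cells MYL7 had 1570.0 and 1081 CPM at 72 hpf and 5267 and 1582 CPM at 48 hpf. Of 6 tested genes of cartilage and pharyngeal arch, 3 fell and 1 rose (beside 3.98% lower and 4.68% higher of all genes tested). BARX1, an arch homeobox gene, had 3.20 and 12.4 CPM at 72 hpf, against 148 and 44.2 CPM at 48 hpf (log2 fold change -3.97, adjusted p = 0.000531). COL2A1 ENSDARG00000069093, the cartilage collagen, had 16.7 and 42.3 CPM at 72 hpf, against 25 and 577 CPM at 48 hpf, so it passed (log2 fold change -3.63, adjusted p = 0.0126) with 1 high library, the 48 hpf sqet33mi59BEt library, in which 12.6% of cells carried it, and overlapping levels. acana, an aggrecan gene of cartilage matrix, rose instead, with 63.4 and 109 CPM at 72 hpf, against 0 and 6.64 CPM at 48 hpf, a pooled ratio of 26.5 on 3 UMIs at 48 hpf (8.92 to 130, adjusted p = 0.000523). Of the epicardium list TBX18 rose and ALDH1A2, a retinoic acid synthesis enzyme, fell (log2 fold change -1.72, adjusted p = 0.00829), and the skeletal muscle gene ckma (-1.68, adjusted p = 0.0232) and the hatching gland gene he1.1 (-3.15, adjusted p = 0.00104) fell. No gene of the leukocyte, neural crest or lens lists was abundant enough to test, and no tested gene of the endothelium, epidermis or neuron lists passed.

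The share of Bulbus arteriosus cells and the share of cells called cycling did not pass a test with all 4 libraries. Bulbus arteriosus made up 6.02% and 5.22% of annotated cells at 72 hpf, against 3.55% and 1.77% at 48 hpf. The groups did not overlap, but the difference did not pass (log2 fold change 1.07, SE 0.57, adjusted p = 0.139 over the 18 clusters, edgeR on cell counts). It passed without the 48 hpf sqet31Et library (1.70, adjusted p = 0.0259). The deposited phase calls put 23.1% and 32.4% of cells in S or G2M phase at 72 hpf, against 58.5% and 42.9% at 48 hpf, a difference of -22.9 percentage points (exact permutation test, two-sided p = 0.333, the smallest that 2 against 2 libraries can give). Summed UMIs of the S and G2M gene lists were not ordered by stage, with 31.4 and 44.9 per 10000 at 72 hpf, against 51.3 and 38.1 per 10000 at 48 hpf (exact permutation p = 0.667), and free RNA enters both measures. In the gene test none of 16 tested S phase genes passed, and 2 of 14 G2 and M phase genes fell (14.3%, beside 3.98% of all genes tested): LBR, a nuclear envelope receptor (log2 fold change -1.80, adjusted p = 0.00958), and mki67, the proliferation antigen (-1.68, adjusted p = 0.0219), both lost without the 48 hpf sqet31Et library and that of mki67 also without the 72 hpf sqet31Et library. The median log2 fold change was -0.57 for S phase and -1.09 for G2 and M phase. Without the 48 hpf sqet31Et library the G2 and M phase median was -0.53, and without the 48 hpf sqet33mi59BEt library -1.64. In cells called G1 alone it was 0.00086, but the phase calls rest on S and G2M genes, so this value is no independent check.

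Depth per cell differed within stages as much as between them. Median UMIs per cell were 1944 and 914 at 72 hpf, against 1413 and 2468 at 48 hpf (exact permutation p = 0.667), and median genes per cell at 500 UMIs were 303 and 338 at 72 hpf, against 331 and 306 at 48 hpf (exact permutation p = 1). The median mitochondrial share was higher at 72 hpf, at 15.4% and 8.18%, against 6.48% and 5.10% at 48 hpf (exact permutation p = 0.333, 2 libraries a stage). All 13 mitochondrially encoded genes had a positive log2 fold change, with a median of 1.25, and 3 passed the test (mt-nd4l, MT-ND5 and mt-atp8), none of them under all alternatives. The list's median was 0.67 without the 72 hpf sqet31Et library, and mt-nd4l, MT-ND5 and mt-atp8 each lost the call without either 48 hpf library. Ribosomal protein genes had a median of -0.52 with 1 of 78 called (rps11l, higher), glycolysis and hypoxia genes -0.05 with 1 of 19 (ADM ENSDARG00000015263, lower), and immediate early and heat shock genes 0.17 with 2 of 27 (egr1, log2 fold change 1.74, adjusted p = 0.0219, and DUSP2, 2.03, adjusted p = 0.00963), both lost without the 48 hpf sqet31Et library, and egr1 also without the 72 hpf sqet31Et or the 48 hpf sqet33mi59BEt library. The shares called higher were 23.1% of mitochondrial, 7.41% of immediate early and heat shock and 1.28% of ribosomal genes, beside 4.68% of all genes tested. The share called lower was 5.26% of glycolysis and hypoxia genes, beside 3.98% of all genes tested. Without the 72 hpf sqet31Et library the immediate early median was -0.39 and the ribosomal median -0.89, and without the 72 hpf sqet33mi59BEt library the ribosomal median was -0.25.

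**Figure D5:**
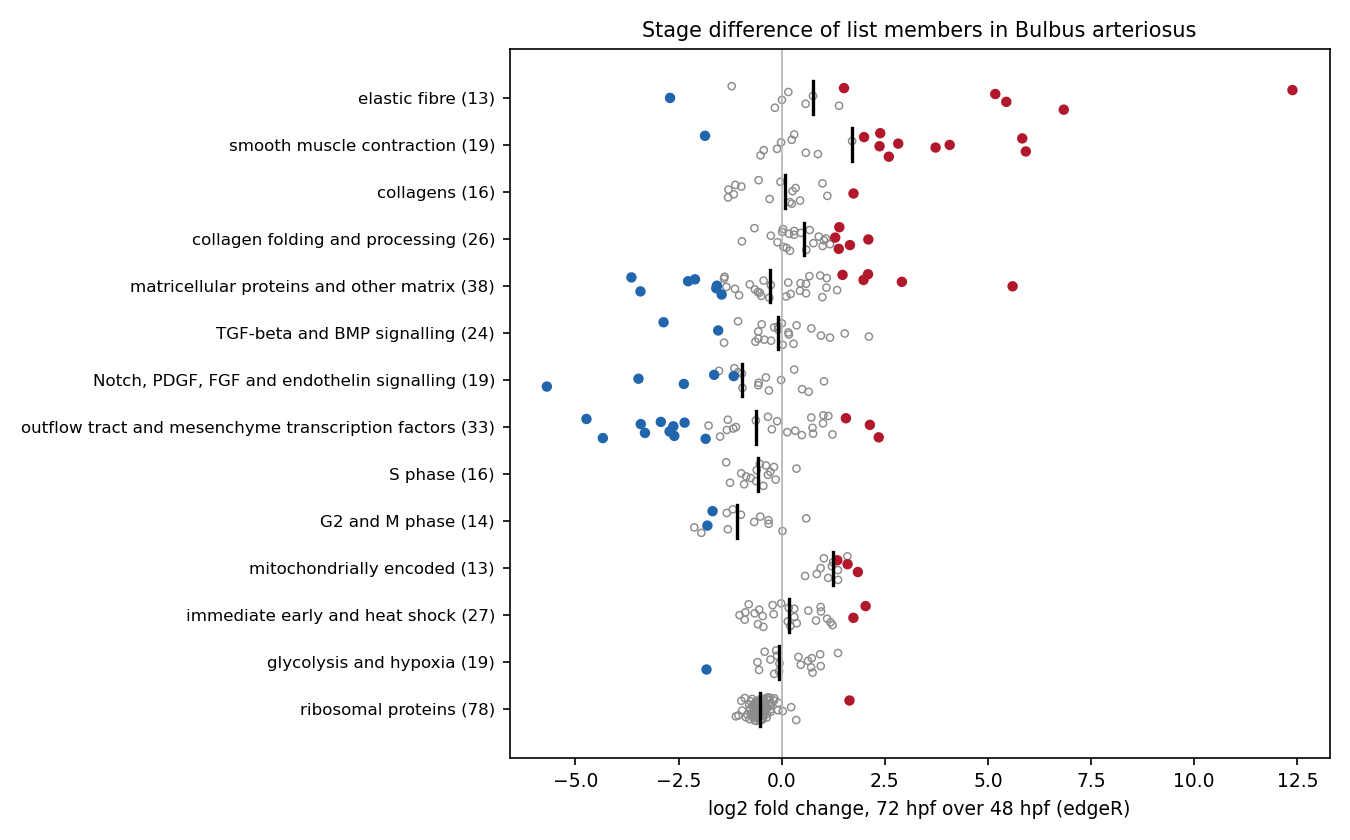
Log2 fold change (72 hpf over 48 hpf, edgeR) of each tested member of the 14 gene lists in Bulbus arteriosus, with the number tested in brackets. Filled points passed the test (red higher, blue lower at 72 hpf), open points did not, black bars are list medians, and the point furthest right, elnb, is a fitted value for a gene with no UMI at 48 hpf and not a measured fold.

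It was then asked whether the stage difference in Bulbus arteriosus differed from that in all other annotated cells of the same libraries. The cluster by stage term passed for 638 genes (4.3%), 353 of them more positive in Bulbus arteriosus (2.38% of 14833 tested) and 285 more negative (1.92%, edgeR with the library as a block). Leaving out the sqet31Et or the sqet33mi59BEt library left 109 and 106, or 255 and 109, genes more positive and more negative at 72 hpf, and 320 and 171, or 235 and 221, at 48 hpf. acta2 had 243 and 185 CPM at 72 hpf and 15.0 and 8.85 CPM at 48 hpf in Bulbus arteriosus, while the other cells pooled had 47.4 and 59.1 CPM at 72 hpf and 118 and 31.1 CPM at 48 hpf (difference of log2 fold changes 4.79, SE 0.41, adjusted p = 1.24e-28). Those cells are a mix, in which acta2 was highest in Mesoderm progenitors at 72 hpf and in Myocardium at 48 hpf (508 and 390 CPM). The part of changing cell shares in this term was not tested. edgeR shares its estimate of spread over genes, so small p-values of this test do not rest on the spread of the named gene alone. MYH11 ENSDARG00000009782 (5.21, adjusted p = 5.3e-17), TBX20 (3.76, adjusted p = 1.59e-18) and fbln5 (1.71, adjusted p = 7.17e-05) differed in the same direction as acta2. For LOX the term did not pass (0.53, adjusted p = 0.785), although its levels in the other cells were only 30.9 and 46.2 CPM at 72 hpf and 0.511 and 0.269 CPM at 48 hpf. elnb was at 0 in both sets of cells at 48 hpf, so its fitted term, which did not pass, says nothing about a difference between them. With Mesenchymal fibroblasts in place of all other cells the term passed for 4.85% of 8025 genes, and with Endothelial cells for 10.3% of 10597. Against the fibroblasts LOX differed (4.17, adjusted p = 0.000627), as did fbln5 (4.51, adjusted p = 7.14e-08).

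Of the lists, smooth muscle contraction had 8 of 32 tested members more positive and 1 more negative, and collagen folding and processing had 11 of 26 more positive and 2 more negative, beside 2.38% more positive and 1.92% more negative of all genes tested. Immediate early and heat shock genes had 10 of 31 more positive and 2 more negative. The elastic fibre list had only 2 of 21 more positive and 2 more negative, with elnb counted among the 21 as not passing. Collagens had 1 of 19 more positive and 6 more negative, and matricellular and other matrix genes 4 of 44 and 9. CALU had a term of 2.30 (adjusted p = 3.07e-14), with 436 and 416 CPM at 72 hpf, against 118 and 206 CPM at 48 hpf, in Bulbus arteriosus and 74.4 and 76.8 CPM at 72 hpf, against 109 and 151 CPM at 48 hpf, in the other cells. Falls that were larger in Bulbus arteriosus included TNC ENSDARG00000021948 (-2.81, adjusted p = 1.97e-08), LIN28A ENSDARG00000016999 (-2.71, adjusted p = 0.00101) and PDGFRA (-1.89, adjusted p = 6.46e-09). The falls of both PRRX1 copies, both ISL2 copies and foxf2a did not pass this test against those in the other cells (terms from -2.19 to -0.40, adjusted p from 0.0824 to 0.817). Of the 41 factors tested here, 7 had a more positive and 3 a more negative term, beside the same shares.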

How the data were processed

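The authors deposited raw UMI counts per gene and cell from the droplet pipeline and a table of cell annotations. They filtered the annotated cells by genes per cell, mitochondrial content and haemoglobin content, and cleared them of doublets with DoubletFinder. Mitochondrial and haemoglobin shares per cell were thus capped before the stages were compared. From that table the deposited cluster label, cell cycle phase (a text label of another kind than a measurement) and percent of mitochondrial UMIs were used. UMIs were summed over Bulbus arteriosus cells per library and tested with edgeR 4.0.16 in R 4.3.3 (quasi-likelihood F test, TMM scaling, filterByExpr, adjusted p below 0.05). The test was also run on simulated counts. These had the same spread for every gene and no effect of line, pool or free RNA, so that run does not cover such effects. DESeq2 1.42.0, limma 3.58.1 (voom), other scalings and filters, leaving out each library, a line block, thinning to 500 UMIs, G1 cells alone and leaving out cells with 1% or more UMIs of other tissues were tried. Named genes were list members plus the 12 largest rises and 12 largest falls among called genes whose libraries did not overlap, with a mean of at least 100 CPM in the higher stage, and the 8 largest cluster by stage terms in each direction. The members and lists were chosen with earlier results of these data known. Of 489 list names 462 were matched to identifiers, and 27 were not. Counting intervals (95%, exact) and floors (3 UMIs) cover counting error only. Bulbus arteriosus libraries shared no cell barcodes with each other. A called member of the transcription factor list is counted there but not reported here by name.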

Additional observations from a re-analysis of the deposited data

Results flagged for a closer look

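The cluster by stage term, which sets the stage difference in Bulbus arteriosus against that in all other annotated cells (edgeR), was most positive, among genes passing the naming rule, for si:cabz01070274.1 (12.13, a fitted value for a gene with no UMI in Bulbus arteriosus at 48 hpf), GGCT (6.21), epd (5.62), MYH11 ENSDARG00000009782 (5.21), acta2 (4.79), si:dkey-164f24.2 (3.82), TBX20 (3.76) and RBFOX3 ENSDARG00000010083 (3.71). It was most negative for COL2A1 ENSDARG00000069093 (-4.27), RBP4 (-3.70), hbbe3 (-3.15), BHMT (-2.92), TNC ENSDARG00000021948 (-2.81), LIN28A ENSDARG00000016999 (-2.71), GSTM3 ENSDARG00000088116 (-2.59) and COL6A2 (-2.56). RBP4, a retinol carrier, had 107 and 159 CPM in Bulbus arteriosus at 72 hpf, against 158 and 97.3 CPM at 48 hpf. In the sums over the other cells it had 187 and 314 CPM at 72 hpf, against 17.8 and 16 CPM at 48 hpf. Its level changed mainly in those sums, and the part of free RNA in that change was not tested. With Mesenchymal fibroblasts in place of all other cells, 6 of these 16 terms did not pass: those of GGCT, MYH11, si:dkey-164f24.2, COL2A1, hbbe3 and GSTM3.

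In 3 measures the lines moved in opposite directions between stages, and the difference between lines was not tested. Median UMIs per Bulbus arteriosus cell were 531 higher at 72 hpf in sqet31Et and lower in sqet33mi59BEt (difference -1554). Median genes per cell at 500 UMIs differed by -28 in sqet31Et and by 32 in sqet33mi59BEt. Summed UMIs of the cell cycle lists per 10000 differed by -20.0 in sqet31Et and by 6.83 in sqet33mi59BEt.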

How the results depend on the processing

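With 2 libraries a stage the counts of called genes moved with the processing, and the cause was not tested. DESeq2 called 159 genes higher and 135 lower, thinned cells 74 and 37, and G1 cells 154 and 122, and with no filter on low counts 404 were higher and 323 lower. Leaving out 1 library gave 124 to 268 higher and 111 to 250 lower. The line as a replicate block gave 331 higher and 298 lower, keeping 254 and 214 of the calls; same-line deviations correlated at 0.0407 over 5430 genes, with 2 pairs. Of 78 named or called list genes none changed sign in the alternatives that gave it a value, and 29 of 77 lost the call without the 48 hpf sqet31Et library and 30 of 61 in thinned cells.

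The elastic fibre median was 0.25 with no filter, 1.91 in thinned cells and 1.49 without cells with other tissue genes. That of smooth muscle contraction was 2.30 without those cells. In thinned cells the median was 0.16 for collagen folding and 0.42 for transcription factors. For G2 and M phase the median was 0.00086 in G1 cells, which are called by such genes, and -0.45 without cells with other tissue genes. Each alternative took its median over the members it could test, so the genes covered can differ. Leaving out 1 library gave medians of 0.48 to 1.36 for elastic fibre, -0.57 to 0.38 for collagens, -1.25 to -0.73 for transcription factors, -1.64 to -0.53 for G2 and M phase, 0.67 to 1.67 for mitochondrial, -0.39 to 0.45 for immediate early and -0.89 to -0.25 for ribosomal genes. Cluster by stage terms passed for 535 positive and 560 negative genes against Endothelial cells and 133 negative against Mesenchymal fibroblasts, and for 109 to 320 and 106 to 221 with 1 library left out. The log2 fold change of the cell share was 0.64 to 1.70 with 1 library left out. The difference in median UMIs per cell was -1039 to 16, with 3.5 without the 72 hpf sqet33mi59BEt library, and that in genes at 500 UMIs -15.5 to 19.5, with -10.5 without the 48 hpf sqet33mi59BEt library and -137.25 with no thinning.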

Other observations

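A few genes outside the lists also separated the stages in Bulbus arteriosus. RBFOX3 ENSDARG00000010083, of a family of RNA splicing regulators, had 326 and 169 CPM at 72 hpf, against 20.0 and 4.42 CPM at 48 hpf (log2 fold change 4.25, SE 0.57, adjusted p = 0.000151, edgeR), while the other annotated cells had 34.5 and 22.1 CPM at 72 hpf, against 19.1 and 17.1 CPM at 48 hpf. si:dkey-164f24.2, whose function is not annotated in the files, had 171 and 263 CPM at 72 hpf, against 35 and 26.5 CPM at 48 hpf (log2 fold change 2.68, SE 0.41, adjusted p = 0.000366). In both genes the 72 hpf libraries lay above the 48 hpf libraries.

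At 72 hpf the smooth muscle markers were found more often in cells that also held elastic fibre transcripts. After thinning to 500 UMIs, a UMI of a smooth muscle marker was present in 57.8% and 60.2% of cells with elnb or fbln5, against 35.8% and 43.1% of the remaining Bulbus arteriosus cells of the same 72 hpf libraries. These are shares of cells within 2 libraries, given as a description with no test.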
